A study of Rattus norvegicus with 23 samples.

Results

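The comparison described here set the livers of 3 male Sprague Dawley rats given methylenedianiline (MDA) against those of 3 male Sprague Dawley rats given the vehicle alone, 6 of the 23 arrays in the series. Members were all arrays whose titles named methylenedianiline at 100 mg/kg or 35% ethanol at 2 ml/kg, and all 6 came from a single in-life study. Per the study's methods, animals were in general between 6 and 8 weeks old, were dosed by oral gavage for 5 days, were fasted overnight and were necropsied 24 h after the last dose. Ethanol was the vehicle of both groups, so every animal compared here had received it. Total RNA of the left lateral liver lobe of each rat was hybridized separately to an Affymetrix rat genome array, which reads each transcript through one or more groups of short probes called probe sets. The animals were different rats, no pairing links a treated rat to a control, and only 1 dose and 1 time point were studied. Where a further comparison was needed, alpha-naphthylisothiocyanate (ANIT, 100 mg/kg, 3 rats) was set against its own corn oil vehicle at 5 ml/kg (3 rats). ANIT and MDA were given in separate in-life studies, so the compound and the study cannot be told apart in any difference between them. Some fits set MDA against all 11 vehicle arrays of the series. These were 3 of ethanol, 3 of corn oil at 5 ml/kg, 3 of corn oil at 2 ml/kg and 2 of water. Only the ethanol arrays came from the in-life study of MDA, so those fits mix the effect of MDA with differences of vehicle and study. A model of all 23 arrays also held rats given acetaminophen or diclofenac, 3 arrays of each.

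MDA is an aromatic diamine used in the manufacture of polyurethanes and epoxy resins, and is known in rats as a toxicant of the epithelium that lines the bile ducts. Hepatocytes make bile acids from cholesterol, take used bile acids back from portal blood through carriers in the sinusoidal membrane and pump them into the canaliculus, from which bile drains into the ducts. When that flow fails, hepatocytes are known to lower synthesis and uptake, to raise pumps that return bile acids to blood, and to release signals that draw inflammatory cells and activate matrix-producing cells around the portal tract. The liver is also the main store of vitamin A, kept as retinyl esters in stellate cells, and retinoic acid made from it is cleared by enzymes of the Cyp26 family.

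Levels are given as the deposited log2 values, so that 1 unit is a change of 2-fold, and each change is the MDA mean minus the ethanol mean with the standard error (SE) from limma. Calls required an adjusted p below 0.05 together with more than a 1.5-fold difference. By this rule 1306 of 14217 genes were called (9.19%), of which 706 were higher (4.97%) and 600 lower (4.22%) in the MDA-treated livers. Among the called genes 268 rose and 149 fell by more than 1 log2 unit. The median change over all genes was 0.0023. The first principal component of the 6 arrays held 60.81% of the variance and placed the MDA samples at 27.11 to 32.9 and the ethanol samples at -36.31 to -24.7. Sample medians ran from 8.95 to 9.02. Groups did not overlap, in either direction, for 35.6% of all genes. Correlations over probe sets were 0.9879 to 0.9931 within groups and 0.9719 to 0.9793 between them. Counts of gene list members called below are to be read beside the shares of all genes, 4.97% higher and 4.22% lower. The lists were chosen with earlier results of these data known, so those counts describe the lists and test nothing.

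The most increased transcripts were Tsx, Cyp26a1, Lcn2 and Cyp1a1, and the most decreased were Car3, Dhrs7l1, Nim1k and Cyp8b1. Tsx read 7.67, 7.59 and 7.885 in the ethanol samples and 11.52, 11.99 and 11.59 in the MDA samples. Lcn2, which encodes the iron-siderophore carrier lipocalin and is made by injured epithelium and hepatocytes, read 9.54, 9.54 and 9.49 in ethanol and 13.25, 12.84 and 13.33 in MDA. Both transcripts were higher in every MDA-treated rat, by 3.98 ± 0.14 (adjusted p = 1.2e-05) and 3.62 ± 0.13 (adjusted p = 1.2e-05). Car3, the carbonic anhydrase abundant in male rat liver, read 14.17, 14.03 and 14.60 in ethanol and 11.17, 9.68 and 10.31 in MDA. Dhrs7l1, a dehydrogenase, read 12.29, 12.16 and 13.71 and 10.04, 8.48 and 8.35 in the same order. Neither gene's groups overlapped, although the third ethanol rat lay well above the other two for Dhrs7l1, and the changes were -3.88 ± 0.33 and -3.76 ± 0.52. The remaining genes among the 12 largest rises were Gbp2, Ccn2, Cxcl1, Gpx2, Serpina7, Abcc3, Ltb and Tcim, at 2.92 to 2.66. Those among the 12 largest falls were Stac3, Vipr1, Cyp17a1, Onecut1, Sult1c2, Cib2, Igfbp3 and Hacl1, at -3.15 to -2.28.

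**Figure D1:**
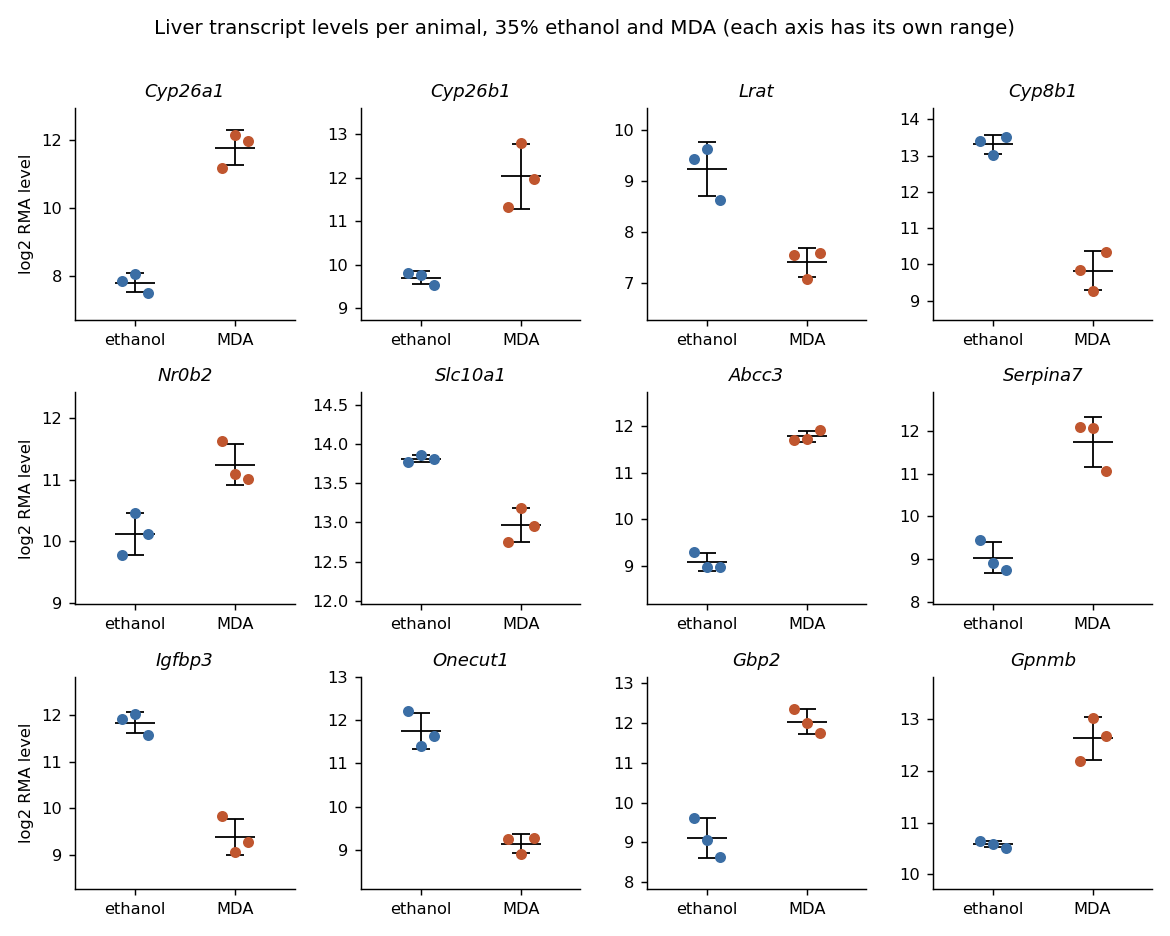
Log2 level (vertical axis, with its own range in each panel) of 12 transcripts in the 3 ethanol rats (blue) and the 3 MDA rats (red). Each dot is 1 animal, and the bars give the mean and SD of each group. The groups do not overlap in any panel, with Cyp26a1 at 7.51 to 8.07 in ethanol and 11.20 to 12.16 in MDA, and Cyp8b1 at 13.01 to 13.52 in ethanol and 9.27 to 10.34 in MDA.

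In bile acid synthesis the largest fall was at the branch toward cholic acid. Of 18 synthesis and conjugation genes measured, 0 rose and 5 fell, against 4.22% of all genes that fell, and the median change was -0.51. Leaving out 1 array gave 3 to 6 falls, with 3 without the second ethanol rat. Cyp8b1, the hydroxylase that directs intermediates to cholic acid, read 13.41, 13.01 and 13.52 in the ethanol samples and 9.86, 9.27 and 10.34 in the MDA samples. All MDA-treated rats lay more than 2 log2 units below the lowest control, and Cyp8b1 changed by -3.49 ± 0.25, which is 11.3-fold lower (adjusted p = 0.000261). Amacr and Acox2, a racemase and an oxidase that shorten the sterol side chain in peroxisomes, fell, with changes of -1.38 ± 0.16 and -0.96 ± 0.20. Hsd17b4 (-0.70) and Akr1c14 (-0.60) were the other called genes. Cyp7a1, which sets the pace of the classic pathway, read 9.10, 11.84 and 10.82 in ethanol and 10.78, 11.71 and 11.42 in MDA. The control rats spread over more than 2 log2 units and the groups overlapped, so that the change of 0.72 ± 0.59 did not pass the test (adjusted p = 0.536), and it was -0.0212 without the lowest control. Cyp27a1, which starts the alternative pathway, was lower in each MDA sample at 12.56, 12.50 and 12.42 against 12.96, 12.94 and 13.08, with a change of -0.50 ± 0.087 that lay under the fold threshold (adjusted p = 0.0079).

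Regulators of that pathway moved in both directions. Nr0b2, the small heterodimer partner that represses bile acid synthesis genes, read 9.77, 10.47 and 10.12 in ethanol and 11.62, 11.09 and 11.02 in MDA, and rose by 1.13 ± 0.21 (adjusted p = 0.0102). Nr1h4, the bile acid receptor FXR, fell from 11.96, 12.24 and 12.16 to 11.34, 11.60 and 11.64. No MDA value of either gene reached the ethanol range, and the fall of Nr1h4 was -0.59 (adjusted p = 0.0128). Fgfr4, the hepatocyte receptor for the intestinal signal of bile acid return, fell with a change of -0.66 ± 0.17. Hnf4a, a receptor that drives many hepatocyte genes including Cyp8b1, changed by -0.65 ± 0.11 (adjusted p = 0.00867). In all, 1 of the 9 control genes measured rose and 4 fell (11.1% and 44.4%, against 4.97% and 4.22% of all genes). The other fall was Fgf21, a fasting hormone of liver, at -0.75. When any 1 array was left out, 0 to 3 of the falls were called. There were 0 without the first MDA rat and 1 without the second ethanol rat. Against all 11 vehicle arrays of the series Nr0b2 was no longer called (adjusted p = 0.22).

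Transport genes differed by membrane. Of 11 sinusoidal uptake carriers 5 fell (45.5%, against 4.22% of all genes) and 0 rose, with a median change of -0.58. Falls numbered 3 to 6 when 1 array was left out, with 3 without the second MDA rat. Slc10a1, the sodium-coupled carrier that takes conjugated bile acids from portal blood, read 13.78, 13.86 and 13.81 in ethanol and 12.75, 13.19 and 12.96 in MDA. Slc22a8, an organic anion carrier, read 12.62, 12.45 and 12.51 and 10.93, 11.19 and 10.96 in that order. Both were lower in all 3 MDA rats than in any control, with changes of -0.85 ± 0.12 (adjusted p = 0.00309) and -1.498 ± 0.10 (adjusted p = 0.000184). Slco1a1, which takes up organic anions without sodium, fell with a change of -0.75 ± 0.10. At the canaliculus, Abcb11, the bile salt export pump, read 12.90, 13.01 and 13.03 in ethanol and 13.21, 12.32 and 13.02 in MDA. Abcc2, which exports bilirubin conjugates, read 11.94, 11.81 and 11.65 and 11.93, 11.66 and 11.71. The groups overlapped for both, and the changes of -0.13 ± 0.21 and -0.04 ± 0.11 did not pass the test. Of the 10 canalicular exporters only Abcg5, a subunit of the sterol exporter, was called, at -0.98 ± 0.16 (adjusted p = 0.0057), where 4.22% of all genes fell. Its partner subunit Abcg8 changed by 0.03 ± 0.085, with overlapping groups.

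At the basolateral membrane 3 of 7 efflux pumps rose (42.9%, against 4.97% of all genes) and 0 fell. Leaving out 1 array gave 2 to 3 rises and 0 to 1 falls. Without overlap between groups 4 were higher and 2 lower, where the shares over all genes were 17.2% and 18.4%. The lowest change of the list was -0.65. Abcc3, which returns conjugated bile acids and glucuronides to blood, read 9.31, 8.98 and 8.98 in ethanol and 11.70, 11.72 and 11.92 in MDA. It was thus at least 2 log2 units higher in each treated rat, with a change of 2.69 ± 0.12 or 6.44-fold (adjusted p = 3.01e-05). Abcc4, a pump that co-exports bile acids with glutathione, read 8.22, 8.49 and 8.73 and 9.10, 9.26 and 9.47. Abcc1 rose less, by 0.61, beside 0.79 for Abcc4. Neither passed the t-test of the study's methods at unadjusted p under 0.01. The call of Abcc1 was lost without the second or the third ethanol rat, or the first or the second MDA rat. Slc51a, the alpha subunit of the basolateral bile acid exporter, changed by 0.07 ± 0.086 and did not pass the test.

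**Figure D2:**
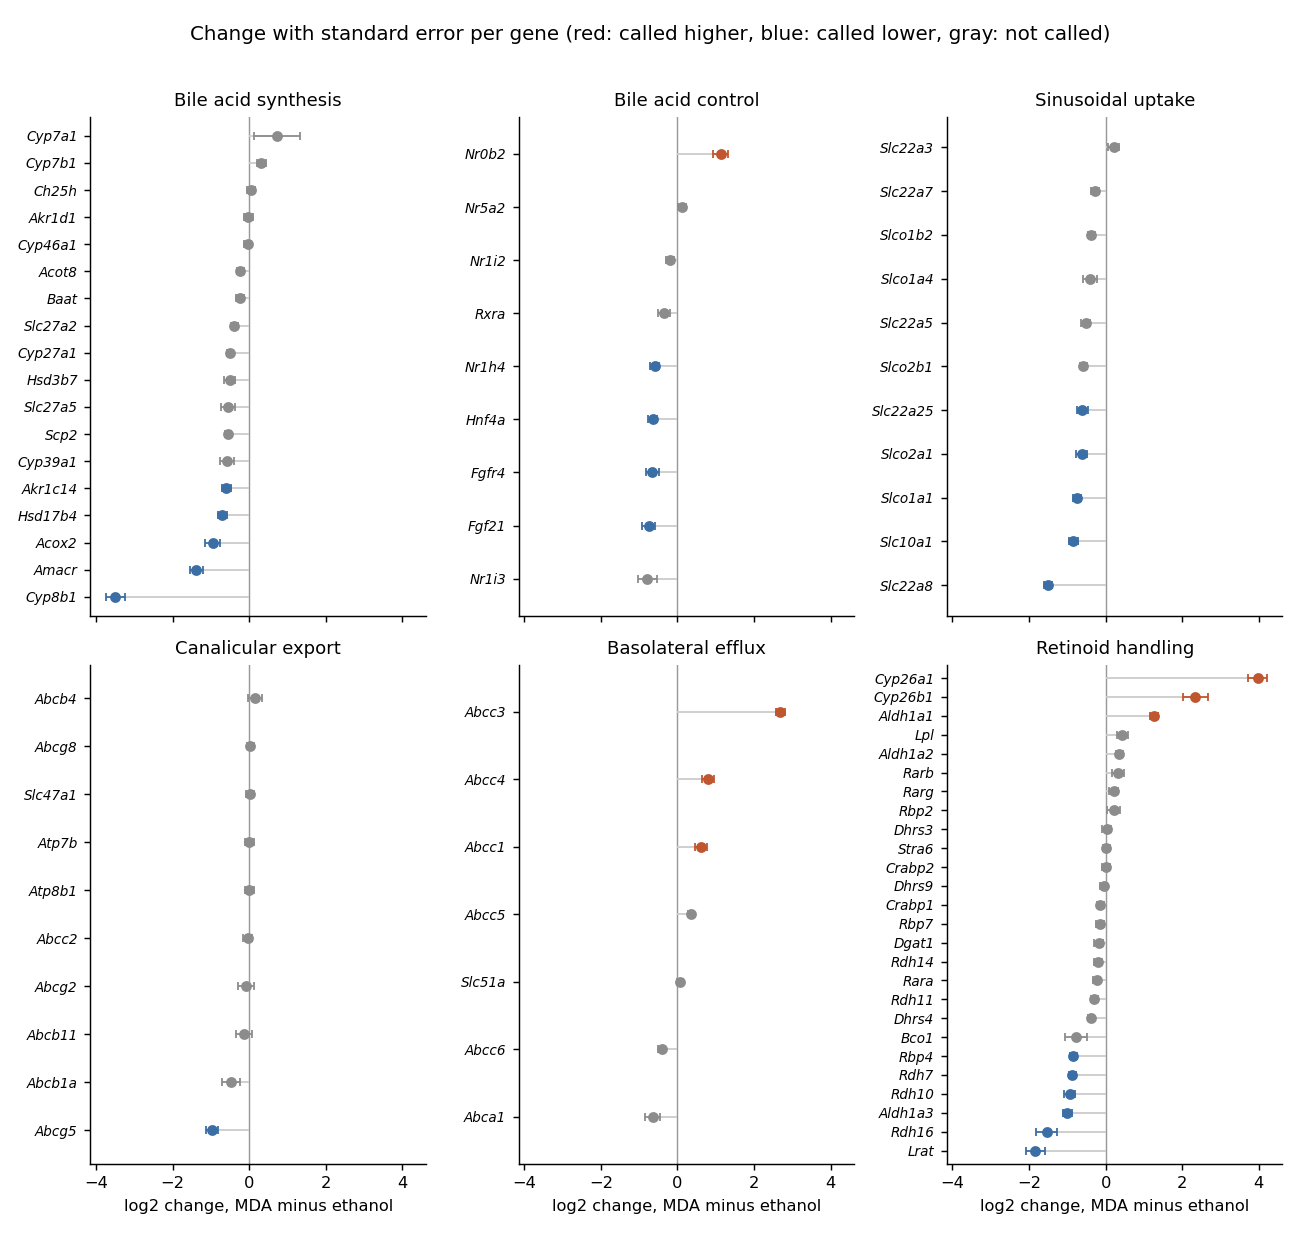
Log2 change, MDA minus ethanol (horizontal axis), with its standard error for every measured member of 6 lists. Red points were called higher, blue points lower and gray points not called; Cyp8b1 at -3.49 and Lrat at -1.83 lie farthest to the left of their panels, and Abcc3 at 2.69 and Cyp26a1 at 3.97 farthest to the right.

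Retinoid genes moved in both directions, with rises of the clearance enzymes Cyp26a1 and Cyp26b1 and a fall of the storage enzyme Lrat. Of 26 members measured 3 rose and 6 fell (11.5% and 23.1%, against 4.97% and 4.22% of all genes), with a median of -0.15. Cyp26a1, the main hydroxylase that clears retinoic acid in liver, read 7.87, 8.07 and 7.51 in the ethanol samples and 11.20, 12.16 and 11.99 in the MDA samples. Cyp26b1, its relative with the same substrate, read 9.80, 9.76 and 9.52 in ethanol and 11.33, 12.81 and 11.96 in MDA. Every treated rat exceeded every control for both genes, and the changes were 3.97 ± 0.25 or 15.7-fold (adjusted p = 0.000132) and 2.34 ± 0.31 or 5.07-fold (adjusted p = 0.00279). The third riser was Aldh1a1, a dehydrogenase that oxidizes retinal to retinoic acid, at 1.25 ± 0.11. Lrat, the enzyme that esterifies retinol for storage and a marker of quiescent stellate cells, read 9.43, 9.63 and 8.62 in ethanol and 7.54, 7.06 and 7.58 in MDA. It was lower in each MDA-treated rat, with a change of -1.83 ± 0.26 (adjusted p = 0.00316). As these arrays read whole liver, fewer cells of a type and less RNA per cell cannot be told apart for Lrat or for any other marker. Falling with it were the retinol dehydrogenases Rdh16 (-1.54), Rdh10 (-0.94) and Rdh7 (-0.87), the dehydrogenase Aldh1a3 (-0.997) and the plasma retinol carrier Rbp4 (-0.84). The other probe set of Rdh10 read a change of 0.36 and was not called, nor was the mean of both (adjusted p = 0.12). Rarb, the beta receptor for retinoic acid, changed by 0.32 ± 0.16, with overlapping groups (adjusted p = 0.258).

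The promoter of Cyp26a1 is shown because the letters of a retinoic acid response element lie just before its start. Sequences in this report are from RefSeq on rat build GRCr8 and hold the 250 bases before the annotated start, 5′ to 3′ on the strand of the gene. Capitals mark a match to a direct repeat of AGNTCA with 5 bases between both copies, searched on both strands, which here lies 92 to 76 bases before the start. Of 33469 promoters of the same length 25 held this motif (0.0747%), and the promoter of Cyp26b1 held no match. The window of Cyp26a1 is chr1:244883572-244883821 on the plus strand.
Cyp26a1: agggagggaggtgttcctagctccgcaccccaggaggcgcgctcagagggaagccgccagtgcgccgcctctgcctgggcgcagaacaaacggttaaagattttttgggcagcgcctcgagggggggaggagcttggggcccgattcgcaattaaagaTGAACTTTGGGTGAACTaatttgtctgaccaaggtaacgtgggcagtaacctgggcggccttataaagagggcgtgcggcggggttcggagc

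Several transcription factors that maintain hepatocyte genes were lower after MDA. Of 24 liver transcription factors and nuclear receptors 6 fell and 2 rose, and the median change was -0.37. These are 25% and 8.33%, against 4.22% lower and 4.97% higher over all genes. Onecut1, the hepatocyte nuclear factor of the cut homeobox family, read 12.21, 11.40 and 11.63 in ethanol and 9.25, 8.89 and 9.28 in MDA. No MDA value came within 2 log2 units of the lowest control, and its change of -2.61 ± 0.20 or 6.11-fold lower was the largest of the list (adjusted p = 0.000343). Foxa3, a forkhead pioneer factor of the liver, read 10.80, 10.99 and 10.59 and 9.94, 10.02 and 9.93, which is a change of -0.83 ± 0.11. Foxa1 (-0.67) and Cebpa (-0.63) also fell, beside Hnf4a and Nr1h4 given above. Cebpa, Hnf4a and Nr1h4 lay near the fold threshold and were not called after quantile normalization. Cebpd, an acute phase regulator, rose with a change of 0.91 ± 0.096, and Nr0b2 was the other riser. Of 16 hepatocyte secreted proteins 1 rose and 2 fell (6.25% and 12.5%, against 4.97% and 4.22% of all genes). Changes were small but mostly negative, 14 against 2 positive, with a median of -0.11. Without overlap between groups 2 were higher and 11 lower, where the shares over all genes were 17.2% and 18.4%. The mean level of the list was 15.22, 15.21 and 15.15 in ethanol and 14.99, 15.10 and 15.10 in MDA. Its median percentile among probe sets in the ethanol rats was 99.9. Alb, the serum albumin, read 15.98, 15.95 and 15.98 and 15.95, 15.96 and 15.95, at the top of the array's range.

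The growth hormone and IGF axis held both falls and rises. Igfbp3, the main circulating carrier of IGF, read 11.92, 12.03 and 11.59 in ethanol and 9.83, 9.07 and 9.28 in MDA, and Igfbp2, a carrier that rises when growth hormone action is low, read 10.11, 9.74 and 9.96 and 11.91, 11.68 and 11.39. The treated rats lay below all controls for Igfbp3 and above all for Igfbp2, with changes of -2.46 ± 0.20 (adjusted p = 0.000393) and 1.73 ± 0.15 (adjusted p = 0.00049). Ghr, the growth hormone receptor, and Socs2, a target and brake of that receptor, fell with changes of -0.85 ± 0.086 and -1.66 ± 0.37. The call of Socs2 was lost without the first or the second ethanol rat, or the second or the third MDA rat. Bcl6, a repressor of many STAT5 target genes, read 9.98, 10.54 and 9.53 and 11.25, 11.55 and 11.17 and rose by 1.31 ± 0.23. In the limma model of all 23 arrays Bcl6 was not called (adjusted p = 0.145). Igf1 was lower in each MDA rat but under the fold threshold, at -0.57 ± 0.12.

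Genes that rat liver expresses mainly in males, under the pulsed growth hormone pattern of that sex, fell as a group. Of 17 measured 0 rose and 11 fell, against 4.22% of all genes, and all 17 changes were negative, with a median of -1.06. As the list was chosen with earlier results of these data known, that share is a description and not a test. Stac3 read 11.76, 12.05 and 12.19 in ethanol and 9.03, 8.75 and 8.76 in MDA. Nim1k, a kinase, read 10.53, 10.08 and 9.78 and 6.57, 6.47 and 6.43. The MDA levels of both were tightly grouped below the controls, with changes of -3.15 ± 0.13 (adjusted p = 2.29e-05) and -3.64 ± 0.17 (adjusted p = 4.24e-05). Sult1c2, a sulfotransferase, fell with a change of -2.48 ± 0.23, and Cyp2c11, the most male-specific P450 of rat liver, with one of -1.28 ± 0.15. Female-predominant genes held both directions, since 2 of 12 rose (Abcc3 and Trim24) and 2 fell (Cyp17a1 and Sult1e1). Each is 16.7% of the list, against 4.97% higher and 4.22% lower over all genes. Cyp17a1, a steroid hydroxylase and lyase, read 11.73, 11.35 and 11.57 in ethanol and 8.13, 9.42 and 8.72 in MDA, a change of -2.79 ± 0.28. Cyp2c12, the defining female P450, read 12.82, 11.52 and 12.77 and 13.78, 13.33 and 13.24, and its change of 1.08 ± 0.33 did not pass the test (adjusted p = 0.0686).

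Thyroid hormone genes included the rise of a plasma carrier and the fall of an activating enzyme. Serpina7, the thyroxine-binding globulin, read 9.44, 8.93 and 8.75 in ethanol and 12.09, 12.06 and 11.07 in MDA. All 3 treated rats were higher, by 2.70 ± 0.29 or 6.5-fold on average (adjusted p = 0.00108). Dio1, the deiodinase that forms active hormone, read 10.02, 10.36 and 10.01 and 8.77, 9.09 and 8.90, and the receptor Thrb read 11.75, 11.77 and 12.05 and 11.27, 11.17 and 10.98. Both fell, with changes of -1.21 ± 0.13 and -0.72 ± 0.12. Against all 11 vehicle arrays neither was called, at -0.67 for Dio1 (adjusted p = 0.0618) and -0.57 for Thrb, which lay under the fold threshold. Thrsp, a lipogenic gene that thyroid hormone induces, was 0.52 ± 0.13, under the fold threshold. Of the 12 genes measured 1 rose and 2 fell (8.33% and 16.7%, against 4.97% and 4.22% of all genes).

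Genes of fat oxidation fell widely. Of 27 genes of peroxisomal oxidation and targets of the fatty acid receptor PPAR alpha, 19 fell and 1 rose, with a median of -0.94. These are 70.4% and 3.7%, against 4.22% lower and 4.97% higher over all genes. Hacl1, a lyase for branched and hydroxylated fatty acids, read 12.45, 12.02 and 12.285 in ethanol and 9.97, 9.69 and 10.26 in MDA. Angptl4, a secreted inhibitor of lipoprotein lipase that fasting induces, read 12.58, 12.51 and 12.14 and 10.51, 10.455 and 10.73, and Fabp1, the abundant fatty acid carrier of hepatocytes, read 15.64, 15.65 and 15.51 and 13.90, 13.92 and 13.98. The treated rats were lower throughout, with changes of -2.28 ± 0.16, -1.84 ± 0.14 and -1.665 ± 0.084 (adjusted p = 0.000231, 0.000271 and 5.32e-05). Pex11a, which divides peroxisomes, fell with a change of -1.78 ± 0.19, and Pdk4, the kinase that spares pyruvate, with one of -1.62 ± 0.14. Cyp4a1, a fatty acid hydroxylase and classic target of the receptor, read 13.56, 13.41 and 13.39 and 12.16, 11.98 and 11.83, a change of -1.465 ± 0.11. The riser was Fabp2, the intestinal-type fatty acid carrier, at 1.04 ± 0.17. Ppara itself read 8.98, 8.93 and 8.74 and 8.47, 8.73 and 8.97, with overlapping groups and a change of -0.16 ± 0.14.

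In mitochondria 12 of 22 genes of fatty acid oxidation and ketone synthesis fell (54.5%, against 4.22% of all genes) and 0 rose. All 22 changes were negative, from -1.32 to -0.20. Groups did not overlap for 20 of the 22, all lower in MDA, where 18.4% of all genes were lower without overlap. Cpt1a, the gate for long-chain fatty acids into mitochondria, read 13.34, 12.95 and 12.80 in ethanol and 12.14, 11.54 and 11.86 in MDA. Decr1, the reductase for unsaturated chains, read 13.57, 13.40 and 13.56 and 11.83, 12.22 and 12.51. Both were called, at -1.18 ± 0.18 and -1.32 ± 0.16. Respiratory chain and ATP synthase transcripts, of which 25 were measured, had 0 calls by limma or by the methods' t-test and a median of -0.22. Without overlap between groups, 11 of these 25 were lower and 0 higher, where the shares over all genes were 18.4% and 17.2%.

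Apolipoproteins and lipoprotein assembly genes followed with 6 of 17 lower (35.3%, against 4.22% of all genes) and 0 higher. Apoa4, made in response to fat load and fasting, read 14.01, 13.97 and 13.72 in ethanol and 12.12, 11.88 and 11.83 in MDA, a change of -1.96 ± 0.12 (adjusted p = 0.000115). Apoc2, the cofactor of lipoprotein lipase, changed by -1.31 ± 0.13, Apoc1 by -1.10 ± 0.13 and Apoa5 by -0.90 ± 0.19. Apob, the backbone of secreted lipoproteins, changed by -0.26 ± 0.079 and did not pass the test.

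Transcripts of amino acid breakdown fell in 3 lists. Of 19 urea cycle and nitrogen genes 11 fell, of 16 for aromatic amino acids and histidine 10 fell, and of 22 for methionine, serine, glycine and proline 6 fell, with 0 rises in the 3 lists. Those falls are 57.9%, 62.5% and 27.3%, against 4.22% of all genes. The 11 falls of the first list became 7 to 10 when 1 array was left out, with 7 without the third ethanol rat. The medians were -0.74, -0.68 and -0.57. Oat, which links ornithine to glutamate, read 12.33, 12.02 and 12.71 in ethanol and 10.81, 10.59 and 10.64 in MDA. Hal, the first enzyme of histidine breakdown, read 12.07, 12.10 and 12.37 and 10.30, 9.93 and 10.83, and Cbs, which passes homocysteine to cysteine, read 12.78, 12.87 and 12.95 and 11.67, 11.73 and 11.77. None of the MDA values reached the control range, and the changes were -1.67 ± 0.16, -1.83 ± 0.21 and -1.14 ± 0.085. Gpt, the alanine aminotransferase whose activity in serum marks liver injury, fell at the transcript level with a change of -1.27 ± 0.18. Cps1, which commits ammonia to urea, read 14.25, 14.36 and 14.32 and 13.87, 14.15 and 14.14, a small change of -0.255 ± 0.10 that did not pass the test (adjusted p = 0.158). Among other steps of the urea cycle itself Otc was called at -0.80, though not against all 11 vehicle arrays (-0.55), and Ass1 and Arg1 were not called, at -0.16 and -0.31.

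Of 19 genes of glucose output and glycogen 8 fell (42.1%, against 4.22% of all genes) and 0 rose. Beside Pdk4 these included Ugp2 (-0.87), which feeds glucose into glycogen, Slc37a4 (-0.87), the glucose phosphate carrier of the endoplasmic reticulum, and Pklr (-0.86), the liver pyruvate kinase. Pck1, the gluconeogenic carboxykinase, changed by -0.28 ± 0.097, with adjusted p = 0.109.

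**Figure D3:**
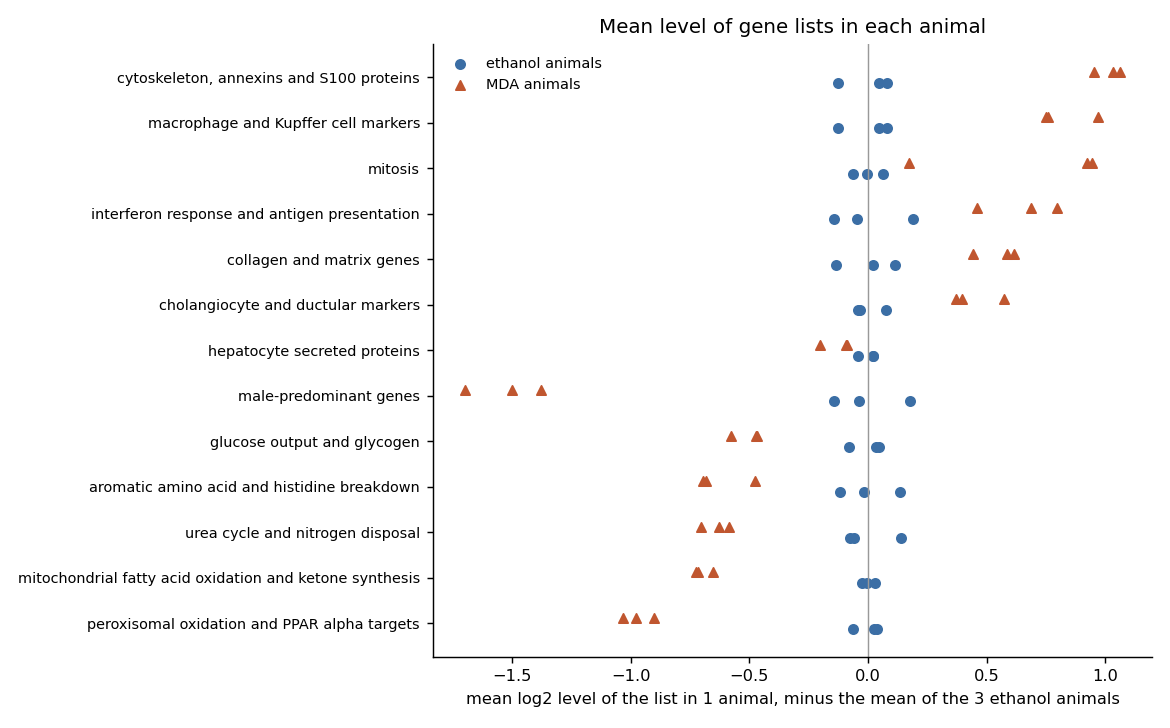
Mean log2 level of each of 13 gene lists in each animal, relative to the mean of the 3 ethanol rats (horizontal axis), with ethanol rats as blue circles and MDA rats as red triangles. MDA rats stand apart from ethanol rats in every list shown; in mitosis genes MDA rat 1, at 8.62, lies nearer to the ethanol rats (8.38 to 8.51) than MDA rats 2 and 3 at 9.37 and 9.39.

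In the opposite direction, transcripts of the cytoskeleton, annexins and S100 proteins were higher almost without exception. Of 29 measured 26 rose and 0 fell, where 4.97% of all genes rose, and the median change was 1.11. The list was chosen with earlier results of these data known, so its share is a description and not a test. Krt8, the keratin that hepatocytes and bile duct cells share, read 11.62, 11.84 and 11.55 in ethanol and 13.07, 13.20 and 13.07 in MDA, and its partner Krt18 read 12.37, 12.64 and 12.08 and 13.42, 13.50 and 13.49. Anxa2, a membrane scaffold of epithelial and mesenchymal cells, read 10.48, 10.61 and 10.02 and 12.07, 12.05 and 11.55. All 3 were higher in each MDA-treated rat, with changes of 1.44 ± 0.10, 1.11 ± 0.14 and 1.52 ± 0.19. Tubb6 and Msn, a tubulin and a linker of membrane to actin, rose by 1.38 and 1.34. The members that did not pass were Pfn1 (0.58), Tubb2a (0.08) and Tubb2b (0.23).

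Markers of bile duct cells were mostly higher, though only some passed both thresholds. Of 19 cholangiocyte and ductular markers 5 rose (26.3%, against 4.97% of all genes) and 0 fell, with a median of 0.34. Changes were positive for 17 and negative for 2. Without overlap between groups 11 were higher and 1 lower, where the shares over all genes were 17.2% and 18.4%. Epcam, an adhesion molecule of ductular and progenitor cells, read 10.56, 10.49 and 10.36 in ethanol and 11.70, 11.76 and 11.26 in MDA. Sox4, a factor of bile duct development that other cells also express, read 9.31, 9.35 and 9.13 and 10.43, 11.12 and 10.71. Both rose in all treated rats, with changes of 1.10 ± 0.14 (adjusted p = 0.00222) and 1.49 ± 0.17 (adjusted p = 0.00136). Only 1 of the 7 probe sets of Sox4 was called. Cd24, Sctr (the secretin receptor of large ducts) and Anxa4 were the other risers, at 0.88, 0.82 and 0.66. Krt19, the keratin used to stain ducts, read 7.99, 8.01 and 7.81 and 8.14, 8.70 and 8.48, and Krt7 read 7.13, 7.11 and 7.28 and 7.29, 7.74 and 7.51. The groups did not overlap for either keratin, yet the changes of 0.51 ± 0.14 (adjusted p = 0.0541) and 0.34 ± 0.12 (adjusted p = 0.125) did not pass the test. Spp1, the osteopontin of ductular cells, overlapped between groups and changed by 0.16 ± 0.16. RNA alone does not grade duct injury, and tissue sections were not analysed here. Among junction genes, the tight junction protein Cldn1 read 11.58, 11.72 and 11.41 and 10.14, 10.57 and 10.20, a fall of -1.27, while Cdh1, the epithelial cadherin, rose by 0.72.

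Macrophage transcripts were higher in all treated rats. Of 19 macrophage and Kupffer cell markers 14 rose (73.7%, against 4.97% of all genes) and 0 fell. The mean level of the list was 10.66, 10.62 and 10.45 in the ethanol rats and 11.34, 11.55 and 11.33 in the MDA rats. Gpnmb, a glycoprotein of lipid-laden and phagocytic macrophages, read 10.64, 10.60 and 10.52 in ethanol and 12.20, 13.02 and 12.67 in MDA, and rose by 2.04 ± 0.18 (adjusted p = 0.000579). Aif1 (1.69), Lgals3 (1.33), Ms4a7 (1.12) and Adgre1 (1.10) rose as well. Clec4f, restricted to resident Kupffer cells, overlapped between groups at 11.99, 11.85 and 11.48 and 11.88, 12.24 and 11.99, and Ccr2, the receptor of incoming monocytes, changed by 0.11 ± 0.12. Lysosomal genes, in which macrophages are rich, had 6 of 18 higher and 0 lower, and 2 to 6 higher when 1 array was left out, with 2 without the second MDA rat. Among lymphocyte markers 4 of 18 rose (Cd3g, Lck, Gzmb and Il2rb, at 0.87 to 0.61), of which 1 was called without the third ethanol rat or the third MDA rat and 2 without the first or the second ethanol rat or the first MDA rat. Ltb, a lymphotoxin made by lymphocytes, read 9.40, 8.29 and 9.76 and 12.94, 11.37 and 11.19. The first MDA rat was highest for Ltb, and the change of 2.68 ± 0.50 had the largest standard error among the 12 largest rises.

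Neutrophil transcripts gave few calls. Of 11 neutrophil markers 1 rose (9.09%, against 4.97% of all genes) and 0 fell. The riser was Fcgr3a at 1.81 ± 0.18, an Fc receptor that macrophages and natural killer cells also carry. Changes were positive for 9 and negative for 2. Without overlap between groups 3 were higher and 0 lower, where the shares over all genes were 17.2% and 18.4%. The list mean, Fcgr3a included, was 7.9987, 7.8560 and 7.8813 in ethanol and 8.1797, 8.3359 and 8.1946 in MDA. S100a8, an abundant neutrophil alarmin, read 5.125, 5.16 and 5.12 in ethanol and 5.36, 5.52 and 5.80 in MDA, near the bottom of the array's range. Its partner S100a9 read 8.82, 8.41 and 8.70 and 9.03, 9.03 and 9.02. Neither passed both thresholds, although no MDA value of either lay inside the ethanol range, and the changes were 0.43 ± 0.12 (adjusted p = 0.0486) and 0.38 ± 0.11 (adjusted p = 0.0659). Csf3r and Cxcr2, receptors that define neutrophils, changed by 0.29 and -0.04 and were not called.

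Chemokines that draw these cells rose selectively. Of 33 chemokines, cytokines and adhesion molecules 10 rose and 2 fell (30.3% and 6.06%, against 4.97% and 4.22% of all genes). Cxcl1, a neutrophil attractant, read 8.61, 8.49 and 8.95 in ethanol and 11.81, 11.30 and 11.23 in MDA, and Ccl2, which attracts monocytes, read 8.39, 8.52 and 8.58 and 10.02, 9.82 and 9.98. Cxcl10, an attractant of activated T cells that interferon gamma induces, read 9.25, 9.04 and 8.86 and 11.55, 10.51 and 10.46. The changes were 2.76 ± 0.18, 1.445 ± 0.095 and 1.79 ± 0.27, with no overlap between groups for any of the 3. Cxcl9 (1.90), Cxcl16 (1.65) and the adhesion molecule Vcam1 (1.18) were also called. Falling were Il33 (-1.37), an alarmin held in nuclei, and Cxcl12 (-1.19), which stromal and sinusoidal cells make. Tnf and Il6 were not called, at 0.20 ± 0.10 and 0.20 ± 0.078.

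Of 35 interferon and antigen presentation genes measured 14 rose (40%, against 4.97% of all genes) and 0 fell, with a median of 0.45. Gbp2, a guanylate-binding protein that interferon gamma induces, read 9.62, 9.07 and 8.63 in ethanol and 12.36, 11.98 and 11.73 in MDA, and rose by 2.92 ± 0.25 or 7.56-fold (adjusted p = 0.000462). Psmb10, a subunit of the immunoproteasome that cuts peptides for presentation, read 10.33, 10.25 and 10.12 and 12.05, 11.55 and 11.61. Cd74, the invariant chain of MHC class II, read 11.78, 11.85 and 11.67 and 13.25, 12.925 and 13.03. Both were higher in each treated rat, with changes of 1.504 ± 0.14 and 1.30 ± 0.11. RT1-Bb (1.63), RT1-DMa (1.56) and RT1-Da (1.285), chains of class II molecules, and Tap1 (1.11) and Tap2 (1.22), the peptide transporter, rose alongside. The antiviral genes Mx1, at 9.81, 8.50 and 8.83 and 9.17, 8.70 and 9.89, and Isg15, at 11.53, 10.54 and 11.06 and 11.005, 10.45 and 11.36, overlapped between groups and were not called.

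Promoters of 3 of these genes are shown because motifs of inflammatory factors lie in them. Capitals mark, on either strand, the interferon stimulated response element, a pair of GAAA with 2 bases between them, in Cxcl10 and Psmb10, and kappaB sites, which bind the NF-kappaB family, in Cxcl1 and Cxcl10. The first motif was present in 1140 of the 33469 promoters (3.41%) and the kappaB site in 2117 (6.33%). In Cxcl10 the interferon element lies 243 to 234 bases before the start, and in Psmb10 matches lie at 73 to 64 and 17 to 8 bases before it. Runs of 11 capitals in Cxcl1 and Cxcl10 are overlapping kappaB matches of 10 letters, 1 base apart. The windows are chr14:17479322-17479571 (minus strand), chr14:15988816-15989065 (plus) and chr19:50743293-50743542 (minus).
Cxcl1: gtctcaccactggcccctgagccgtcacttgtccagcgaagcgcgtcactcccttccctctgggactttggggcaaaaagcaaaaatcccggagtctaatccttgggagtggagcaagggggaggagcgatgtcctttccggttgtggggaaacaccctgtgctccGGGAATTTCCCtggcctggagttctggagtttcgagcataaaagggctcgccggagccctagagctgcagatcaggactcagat
Cxcl10: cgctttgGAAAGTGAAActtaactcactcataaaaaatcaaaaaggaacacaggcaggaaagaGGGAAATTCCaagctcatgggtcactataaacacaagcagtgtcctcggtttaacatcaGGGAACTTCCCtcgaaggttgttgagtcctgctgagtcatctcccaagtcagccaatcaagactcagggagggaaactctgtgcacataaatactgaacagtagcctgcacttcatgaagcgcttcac
Psmb10: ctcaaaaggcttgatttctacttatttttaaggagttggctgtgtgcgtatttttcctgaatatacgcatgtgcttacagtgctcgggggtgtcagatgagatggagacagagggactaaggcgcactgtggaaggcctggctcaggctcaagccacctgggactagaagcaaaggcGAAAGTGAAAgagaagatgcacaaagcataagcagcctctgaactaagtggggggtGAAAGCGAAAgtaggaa

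Among stellate cell and contractile genes, 7 of 21 rose and 3 fell (33.3% and 14.3%, against 4.97% and 4.22% of all genes). Tagln and Acta2, which activated stellate cells and smooth muscle use to contract, read 8.38, 8.19 and 8.26 and 9.73, 9.95 and 9.71 in ethanol, and 10.20, 10.58 and 10.48 and 11.17, 11.17 and 11.21 in MDA. Each gene was higher in all treated rats, with changes of 2.15 ± 0.12 (adjusted p = 7.2e-05) and 1.38 ± 0.093 (adjusted p = 0.000179). Lum, a matrix proteoglycan, read 6.24, 7.05 and 6.28 and 7.14, 8.68 and 9.24, so that the first MDA rat stood just above the controls. The falls were Lrat, described above, Reln (-0.79), a matrix protein of quiescent stellate cells, and Pdgfra (-0.63), a growth factor receptor of fibroblasts. Des and Pdgfrb, general markers of the cell type, were not called, at 0.51 ± 0.12 and 0.08 ± 0.13.

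Of 38 collagen and matrix genes 14 rose (36.8%, against 4.97% of all genes) and 0 fell. Col1a1, the main fibrillar collagen of scars, read 10.62, 10.89 and 10.11 in ethanol and 12.01, 12.23 and 12.04 in MDA, and Timp1, an inhibitor of matrix proteases, read 8.85, 9.04 and 8.71 and 10.18, 10.71 and 10.63. Postn, a matricellular protein of healing tissue, read 6.65, 6.83 and 6.56 and 7.97, 8.48 and 9.14. The 3 changes were 1.55 ± 0.18, 1.64 ± 0.15 and 1.85 ± 0.25, each with groups apart. Tgfb1, the growth factor that activates stellate cells, read 9.70, 9.68 and 9.62 and 10.72, 10.78 and 10.52, a change of 1.01 ± 0.095. Col3a1, another fibrillar collagen, overlapped between groups and was not called (0.28 ± 0.15).

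Ccn2, the connective tissue growth factor of injured epithelium and activated stellate cells, read 7.91, 7.96 and 7.998 in ethanol and 10.11, 11.48 and 10.79 in MDA. It rose by 2.84 ± 0.29 or 7.16-fold (adjusted p = 0.000876), while Ccn1, another target of the YAP and TAZ coactivators, changed by 0.14 ± 0.092. The Ccn2 promoter is shown for the 3 copies of GGAATG, the letters bound by TEAD partners of YAP, in capitals at 166, 101 and 92 bases before the start. This short motif occurred in 4037 promoters (12.1%). Among genes with a promoter sequence here, it was present in 10.1% of those called higher and 10.5% of those not called. Of 17 YAP and TAZ targets 2 rose (11.8%, against 4.97% of all genes) and 0 fell, with a median of 0.15. A role of YAP or TEAD was not tested. The window is chr1:22624615-22624864 on the minus strand.
Ccn2: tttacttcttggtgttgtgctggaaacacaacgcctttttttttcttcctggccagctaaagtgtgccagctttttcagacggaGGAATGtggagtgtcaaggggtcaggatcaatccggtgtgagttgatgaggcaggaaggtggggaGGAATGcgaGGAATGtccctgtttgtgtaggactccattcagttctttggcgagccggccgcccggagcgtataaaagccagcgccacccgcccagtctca

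Genes of foreign compound metabolism rose in some families and fell in others. Cyp1a1, the P450 that the aryl hydrocarbon receptor (AhR) induces, read 10.56, 9.90 and 10.32 in ethanol and 13.10, 14.31 and 13.99 in MDA, and rose by 3.54 ± 0.29 or 11.6-fold (adjusted p = 0.000437). Cyp1a2, a receptor target that hydroxylates aromatic amines, read 14.05, 13.63 and 13.74 and 13.725, 14.50 and 14.36, with overlapping groups and a change of 0.39 ± 0.20. Nqo1, a quinone reductase, was the only other of 7 AhR targets called (1.02 ± 0.16). Nat1 and Nat2, which acetylate aromatic amines such as MDA, changed by -0.23 ± 0.21 and -0.34 ± 0.19 and overlapped between groups. Fmo1, a flavin enzyme that oxidizes amines, fell with a change of -1.12 ± 0.25.

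Of 28 targets of the oxidant sensor NRF2 10 rose (35.7%, against 4.97% of all genes) and 0 fell. Gpx2, a glutathione peroxidase of epithelia, read 8.05, 8.03 and 8.36 in ethanol and 9.93, 10.96 and 11.66 in MDA, and Ephx1, the microsomal epoxide hydrolase, read 13.99, 13.72 and 13.52 and 15.58, 15.59 and 15.57. All treated rats were higher for both, with changes of 2.70 ± 0.37 and 1.84 ± 0.12. Gclc, the catalytic subunit that makes glutathione and a standard target of NRF2, was lower in each MDA rat at -0.53 ± 0.12, under the fold threshold. Among 21 glutathione S-transferases 7 rose, led by Gsta3 (9.32, 9.18 and 8.91 in ethanol and 11.02, 11.94 and 11.74 in MDA), and 4 fell, led by Gstp3 (-1.52). Leaving out 1 array gave 3 to 8 rises and 2 to 4 falls, with 3 rises without the second or the third MDA rat and 4 without the first or the second ethanol rat, and 2 falls without the first or the third ethanol rat or the first MDA rat. Members of that family are close in sequence, so that probes may read more than one of them. Of 28 P450 enzymes of families 2 and 3, 7 fell and 1 rose, Cyp2c22 at 1.66. These are 25% and 3.57%, against 4.22% lower and 4.97% higher over all genes. The Cyp2e1 transcript read 15.59, 14.90 and 15.70 in ethanol and 14.16, 14.16 and 14.20 in MDA, a change of -1.23 ± 0.19.

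Cell cycle transcripts were higher with a wide spread among treated rats. Of 31 mitosis genes 7 rose (22.6%, against 4.97% of all genes) and 0 fell, all 31 changes were positive, and the median was 0.53. Mki67, a marker of cycling cells, read 6.79, 7.32 and 6.53 in ethanol and 7.81, 9.41 and 9.22 in MDA, and Ccna2, the cyclin of DNA synthesis and mitotic entry, read 5.42, 5.73 and 5.28 and 6.36, 7.199 and 8.02. The first MDA rat had the lowest value of the 3 for both genes, and the changes were 1.93 ± 0.39 (adjusted p = 0.0159) and 1.72 ± 0.35 (adjusted p = 0.0166). Cdk1, the mitotic kinase, read 8.67, 8.91 and 8.53 and 8.95, 10.18 and 9.90 and did not pass the test (0.98 ± 0.28, adjusted p = 0.0579). The number of mitosis genes called was 24 without the first MDA rat, 2 without the second MDA rat or the third ethanol rat, 4 without the third MDA rat and 21 against all 11 vehicle arrays. Of 29 replication genes 4 rose (7 against all 11 vehicle arrays), among them Mcm6 (1.19) and Uhrf1 (1.10). Cdkn1a, the cell cycle inhibitor p21, overlapped between groups at 0.49 ± 0.16, while 4 of 20 p53 targets rose. Leaving out 1 array gave 1 to 6 rises, with 1 without the second ethanol rat and 2 without the third. The rises included Fas (1.08), a death receptor, whose other probe sets read 0.084 and -0.071 and whose mean over all 3 was not called (adjusted p = 0.0512). Of stress genes, 0 of 20 endoplasmic reticulum chaperones were called by limma or by the methods' t-test. Without overlap between groups, 5 of them were higher and 3 lower, where the shares over all genes were 17.2% and 18.4%. Asns (2.83-fold) and Phgdh (2.71-fold), enzymes of asparagine and serine synthesis, rose within the stress response list, in which 4 rises became 2 without the second or the third ethanol rat or the first or the second MDA rat.

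Cholesterol synthesis genes differed between MDA and ANIT. With MDA 1 of 17 genes fell and 0 rose (median 0.004), whereas with ANIT 16 of 17 rose (median 1.59), where 3.87% of all genes rose with ANIT. The result for MDA depended on the controls, since 6 of 17 rose and 0 fell with MDA against all 11 vehicle arrays of the series. The difference between both effects was tested directly on the 12 arrays, and 239 of 14217 genes were called (1.68%), with 138 higher (0.971%) and 101 lower (0.71%) under MDA. All 15 called differences in cholesterol synthesis were lower under MDA. Sqle, the squalene epoxidase, read 11.13, 11.36 and 10.49 in ethanol, 11.54, 11.48 and 11.20 in MDA, 9.865, 9.95 and 10.09 in corn oil and 12.31, 12.28 and 12.57 in ANIT. Idi1, an isomerase early in the pathway, read 11.35, 12.12 and 11.09, 11.59, 11.54 and 11.44, 9.37, 9.76 and 10.21 and 12.26, 12.13 and 12.24 in the same order. The ethanol rats were all above the corn oil rats for both genes. The MDA rats overlapped their controls, the ANIT rats did not, and the differences between effects were -2.01 ± 0.26 (adjusted p = 0.0041) and -2.42 ± 0.33 (adjusted p = 0.00549). Hsd17b7, a reductase of the same pathway, fell with MDA (-1.09 ± 0.15) and rose with ANIT (1.59 ± 0.18), and was not called with MDA against all 11 vehicle arrays (-0.61, adjusted p = 0.0558). In fatty acid synthesis Scd, the desaturase, read 13.72, 13.06 and 13.41 in ethanol and 12.34, 12.23 and 11.76 in MDA, a change of -1.29 ± 0.20, against 1.20 ± 0.35 with ANIT (difference -2.48 ± 0.45, adjusted p = 0.0205). Against all 11 vehicle arrays Scd was not called with MDA (adjusted p = 0.887). Fasn, the fatty acid synthase, rose with both, by 0.86 ± 0.13 with MDA and 2.76 ± 0.19 with ANIT (difference -1.90 ± 0.25, adjusted p = 0.00447).

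Most genes called with both compounds moved the same way. Of the 1306 genes called with MDA and the 1030 called with ANIT (7.24% of all genes), 531 were shared, which is 40.7% of the MDA genes and 51.6% of the ANIT genes, and 526 of them had the same direction. These comparisons have no samples in common. Hsd17b7, Mt2A, Serpina7, Slc39a4 and Tat were called in opposite directions. Against all 11 vehicle arrays the MDA calls of Mt2A (0.17, adjusted p = 0.759), Slc39a4 (-0.41, adjusted p = 0.113) and Hsd17b7 were lost, and that of Mt2A was also lost without the second ethanol rat or without the first or the third MDA rat. Serpina7 fell with ANIT (-1.68 ± 0.28) and rose with MDA, a difference of 4.38 ± 0.45 (adjusted p = 0.00119). Tat, the aminotransferase that starts tyrosine breakdown, read 12.44, 12.29 and 12.45 in ethanol and 11.53, 11.41 and 11.665 in MDA, and fell with MDA (-0.86 ± 0.098) while it rose with ANIT (0.70 ± 0.14).

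Changes that differed toward higher values under MDA included retinoid, interferon and macrophage genes described above, such as Gpnmb (1.21 ± 0.23). Cyp26a1 changed by -0.53 ± 0.16 with ANIT (adjusted p = 0.0797), so that the difference was 4.501 ± 0.33 (adjusted p = 0.000222). Differences of 3.11 ± 0.49 for Gbp2, 2.73 ± 0.35 for Tnfsf10 (the death ligand TRAIL), 2.42 ± 0.37 for Cyp26b1 and 2.37 ± 0.32 for Mest, an imprinted hydrolase, were also called. Largest of all was Ugt2b, a glucuronosyltransferase of a family close in sequence, that fell with ANIT (-5.21 ± 0.52) and was not called with MDA (-0.33 ± 0.12). Mt2A, a metallothionein, differed by 2.34 ± 0.40. Toward lower values under MDA were Cyp17a1 (-3.23 ± 0.38), Mybl1 (-2.86 ± 0.39), Hsd17b7 (-2.68 ± 0.26), Scd, Idi1, Cyp8b1 (-2.41 ± 0.36), Acat2 (-2.38 ± 0.23) and Onecut1 (-2.32 ± 0.31). Cyp7a1 rose with ANIT (2.85 ± 0.49), but the difference from MDA, -2.13 ± 0.87, did not pass the test (adjusted p = 0.352). Nr0b2 changed by -1.25 ± 0.52 with ANIT and its difference of 2.37 ± 0.62 likewise failed (adjusted p = 0.0992). Epcam rose with both compounds, by 2.16 ± 0.16 with ANIT, and the difference of -1.06 ± 0.23 was called (adjusted p = 0.0444), though not in 9 of the 12 fits that left out 1 array (adjusted p = 0.0662 to 0.127). In mitosis genes ANIT raised 26 of 31 and MDA 7 of 31, yet only 3 differences were called, all lower under MDA.

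**Figure D4:**
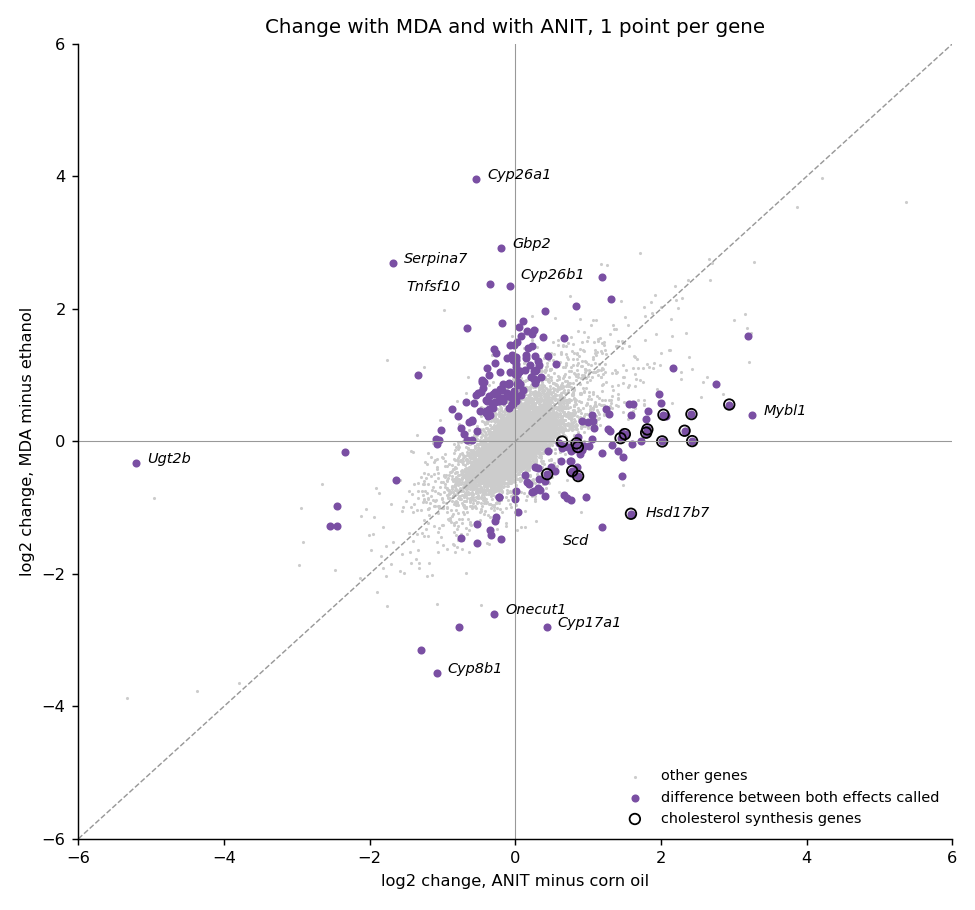
Log2 change of each of 14217 genes with ANIT against corn oil (horizontal axis) and with MDA against ethanol (vertical axis). Purple points are genes whose difference between both effects was called, open circles are the 17 cholesterol synthesis genes, and the dashed line marks equal change; cholesterol genes lie to the right near an MDA change of 0 except Hsd17b7 (-1.09), Cyp26a1 (3.97) and Serpina7 (2.70) lie high, and Cyp8b1 (-3.49) lies low.

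The remaining lists showed smaller or mixed changes. Acute phase genes rose in 5 of 26, led after Lcn2 by Orm1 (1.62) and Lbp (1.56), and fell in 3 (1 without the second MDA rat). Those are 19.2% and 11.5%, against 4.97% and 4.22% of all genes. The clock list had 5 of 18 lower (3 without the second or the third ethanol rat or the third MDA rat), with Cry1 (-1.55) and Rora (-1.34) the most changed, and 0 higher. Its share lower was 27.8%, against 4.22% of all genes. Immediate early genes rose in 7 of 24 (29.2%, against 4.97% of all genes), led by Egr1 (1.52) and Klf6 (1.52). Leaving out 1 array gave 4 to 10 rises, with 4 without the second ethanol rat, and Egr1 was not called against all 11 vehicle arrays (0.72, adjusted p = 0.188). Hamp, the iron hormone hepcidin, read 13.81, 13.56 and 13.83 in ethanol and 13.04, 12.35 and 13.52 in MDA, and its change of -0.76 ± 0.26 did not pass the test (adjusted p = 0.0945). Erythroid genes Hbb and Alas2 fell with changes of -1.04 ± 0.20 and -0.95 ± 0.21, while the other 6 erythroid markers were not called, and neither gene was called against all 11 vehicle arrays; the share of blood in the samples was not tested. Pancreatic acinar markers, which would betray adjacent tissue, had 1 of 13 called (Cela1, -0.73) and a median percentile of 24.2 among probe sets in the ethanol rats. Ribosomal protein genes had 1 of 34 called and a median of 0.26, with 33 changes positive and 1 negative. Without overlap between groups 26 were higher and 0 lower, where the shares over all genes were 17.2% and 18.4%.

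**Figure D5:**
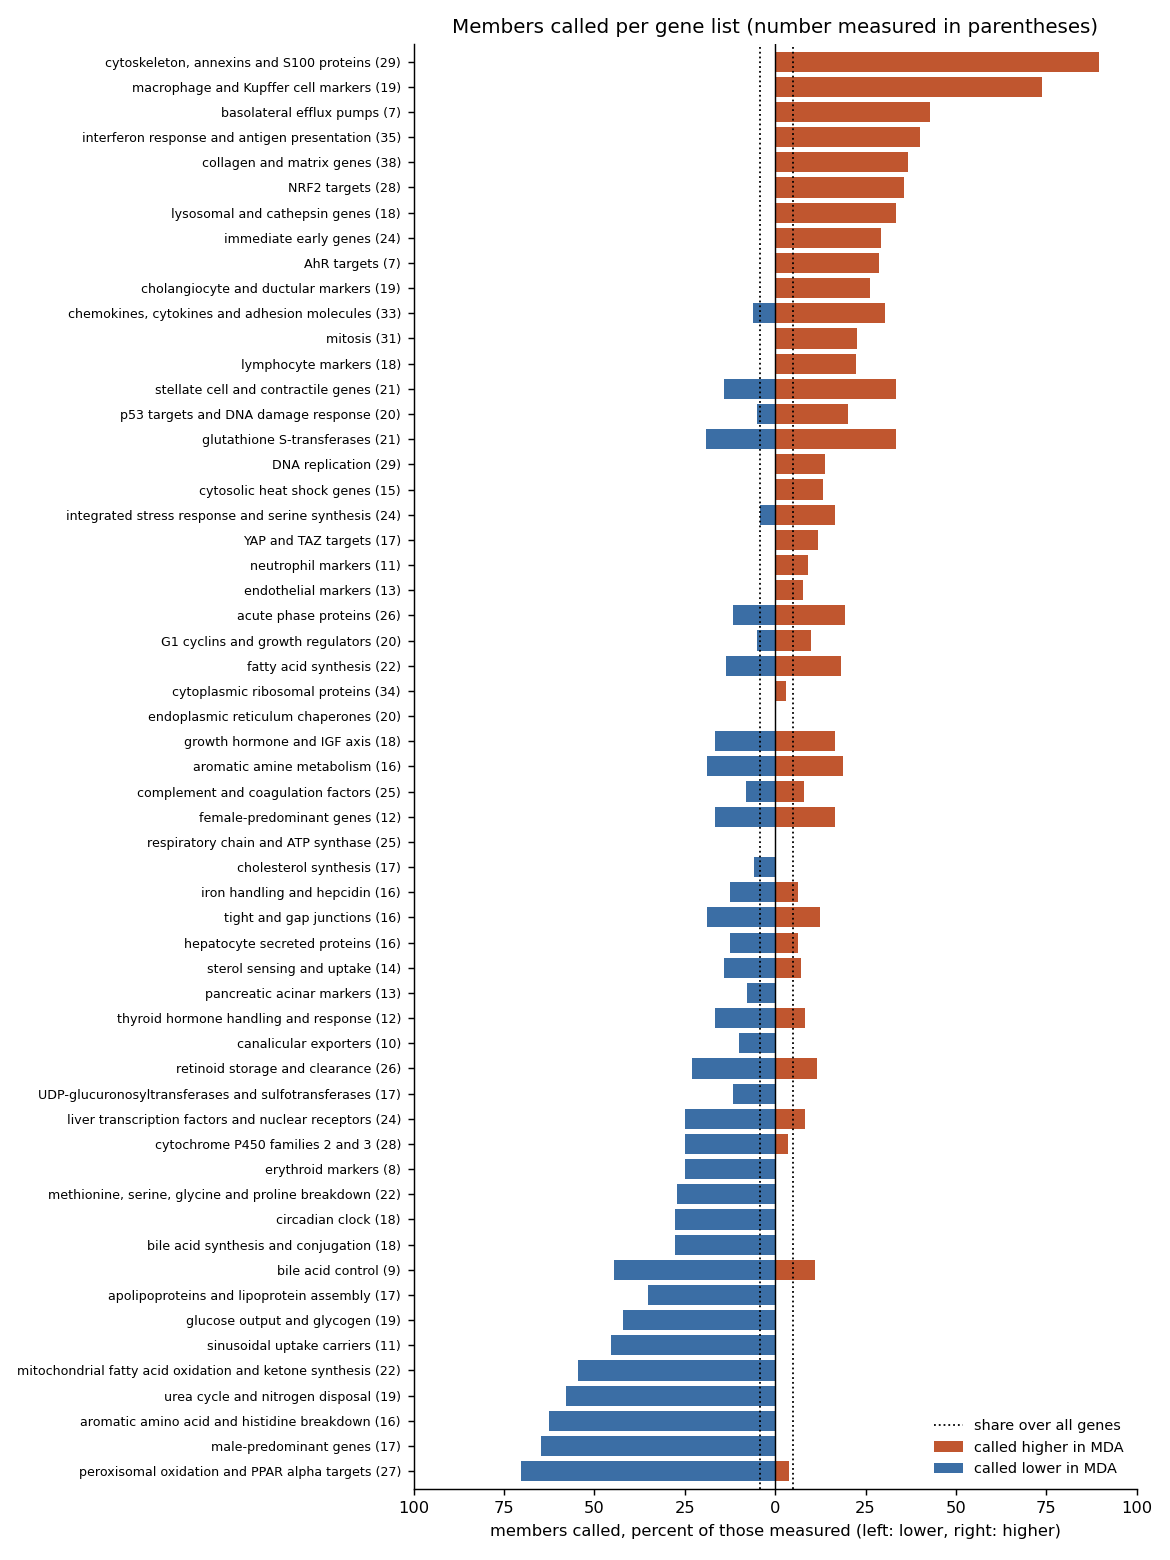
Share of measured members called higher (red, to the right) and lower (blue, to the left) in MDA against ethanol for each of 57 gene lists, with the number measured in parentheses. Dotted lines give the shares over all genes, 4.97% higher and 4.22% lower; the cytoskeleton list (26 of 29 higher) is at the top and the PPAR alpha target and male-predominant lists (19 of 27 and 11 of 17 lower) are at the bottom.

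Another 400 called probe sets carried no gene name here, of which 139 were higher and 261 lower, with changes from -3.92 to 3.03. They are counted among the 2179 called of 31042 probe sets (7.02%) and in no gene count above.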

How the data were processed

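Male rat liver RNA was profiled on Affymetrix rat genome arrays, 1 array per animal. Values deposited by the authors are log2 expression after robust multi-array averaging (RMA) in Array Studio. RMA shrinks large fold changes and gives no depth, and the number of arrays limits the precision. Samples were grouped by their titles. Of 31099 probe sets 57 controls were left out and 31042 were tested with limma 3.58.1 in R 4.3.3 (lmFit and eBayes, two-sided, Benjamini-Hochberg over all probe sets), and called at adjusted p under 0.05 and fold change over 1.5. MDA was fitted with its own vehicle (6 arrays), ANIT likewise, and the difference between both effects on 12 arrays. The scripts were tested on simulated data. Nothing links replicates to batches. The p-values test the difference between groups against the spread between animals within a group, which eBayes moderates across probe sets.

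GEO's platform annotation gave 20826 probe sets 1 gene, 436 several and 9780 none. Each gene was read through whichever of its probe sets had the highest mean on the 6 arrays. Of the genes listed, 1127 entries were measured and 167 were not. Genes were named by rule: the 12 largest rises and falls, up to 4 leading called members of each list with further members by role, a set of bile, duct and stellate cell genes whatever their values, and the 8 largest differences from ANIT each way. The members and lists were chosen with earlier results of these data known. Alternatives were other normalization, centring, filters, thresholds, models, control arrays, the methods' t-test (unadjusted p under 0.01), and leaving out each array. Arrays of acetaminophen and diclofenac, 3 of each, entered only the model of all 23 arrays.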

Additional observations from a re-analysis of the deposited data

Results flagged for a closer look

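The effect of MDA differed from that of ANIT, by the test of the difference itself in limma over 12 arrays, for 46 of the genes named above. Compound and in-life study cannot be told apart in any of these values, which are the log2 change with MDA minus the log2 change with ANIT. Higher under MDA were Ugt2b (4.88), Cyp26a1 (4.501), Serpina7 (4.38), Gbp2 (3.11), Tnfsf10 (2.73), Cyp26b1 (2.42), Mest (2.37), Mt2A (2.34), Cxcl10 (1.98), Fcgr3a (1.71), Igfbp2 (1.67), Adgre1 (1.49), Abcg5 (1.46), Aldh1a1 (1.37), Cd74 (1.35), RT1-Da (1.32), Gpnmb (1.21), Cyp2c11 (1.17), Abcg8 (1.13), Ms4a7 (1.11), Gzmb (1.02), Tgfb1 (0.99), Tap2 (0.91), RT1-DMa (0.89), Il2rb (0.84), Tagln (0.83) and Lck (0.80). Lower under MDA were Cyp17a1 (-3.23), Mybl1 (-2.86), Hsd17b7 (-2.68), Scd (-2.48), Idi1 (-2.42), Cyp8b1 (-2.41), Acat2 (-2.38), Onecut1 (-2.32), Vipr1 (-2.03), Sqle (-2.01), Fasn (-1.90), Stac3 (-1.86), Tat (-1.56), Slc39a4 (-1.48), Foxa3 (-1.24), Epcam (-1.06), Rora (-1.002), Cbs (-0.88) and Cyp4a1 (-0.72). The adjusted p of these differences ran from 0.000222 for Cyp26a1 to 0.0495 for Cxcl10. Of the 46 differences 25 were called without each array in turn, while 19 were lost without corn oil array 1 and 18 without ethanol array 3. Of the 12 fits that left out 1 array, Cxcl10 was lost in 11, Cyp4a1, RT1-DMa and Tagln in 10 each, Epcam and Gzmb in 9 each, Adgre1 and Il2rb in 8 each, and Gpnmb, Rora, Tap2 and Tgfb1 in 7 each. Groups of 3 animals were too small to test for single outlying samples.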

How the results depend on the processing

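No paired analysis was possible because the MDA-treated and the control rats were different animals and replicate numbers followed the order of the samples. Of 156 named genes called with MDA, 129 were called the same way under quantile normalization, median centring, the filter on dim probe sets, a model of all 23 arrays, limma with trend and robust settings and all 11 vehicle arrays, where tested, and 130 without any 1 array. Stricter rules kept fewer. The methods' t-test lost 116 of the 156 after Benjamini-Hochberg adjustment and 33 at its unadjusted threshold. A fold change over 2 lost 44. Among those lost by the adjusted t-test were Cyp1a1 (adjusted p = 0.0527), Gbp2 (0.0527), Car3 (0.0544) and Ccn2 (0.0619). Calls of Abcc1, Acox2, Akr1c14, Alas2, Anxa4, Apoa5, Ccna2, Cd3g, Cela1, Cry1, Fgf21, Fgfr4, Fmo1, Gzmb, Il2rb, Lum, Mki67, Mt2A, Nr1h4, RT1-Bb and Socs2 were each lost on leaving out 1 array, for more than 1 choice of that array, and those of Cebpa, Foxa1, Hnf4a, Pdgfra and Ugp2 for a single choice. Against all 11 vehicle arrays the calls of Alas2, Cebpa, Cib2, Dio1, Egr1, Gzmb, Hbb, Hnf4a, Hsd17b7, Mt2A, Nr0b2, Nr1h4, Otc, Pklr, Scd, Slc39a4, Thrb and Trim24 were lost. The model of all 23 arrays lost Adgre1, Bcl6, Fgf21, Nr0b2 and Rbp4, and quantile normalization lost Akr1c14, Cebpa, Fgfr4, Hnf4a, Hsd17b4, Lum and Nr1h4. The mean of all probe sets of a gene lost Akr1c14, Cdh1, Cebpd, Fas, Gzmb, Hnf4a, RT1-Bb, Rdh10 and Sox4. The cause was not tested.

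The 2179 probe sets called with MDA became 4023 without a fold threshold, 641 at a fold change over 2 and 372 with the methods' t-test after Benjamini-Hochberg adjustment. Those higher (1006) became 1773, 361 and 205, and those lower (1173) became 2250, 280 and 167, with 736 lower by the methods' t-test at its unadjusted threshold. For ANIT the 1671 became 3050, 568 and 222, the 816 higher 1322, 329 and 127, and the 855 lower 1728, 239 and 95. For the difference between both effects a fold change over 2 left 197 of 361, with 99 of 190 higher and 98 of 171 lower, and the model of all 23 arrays gave 270 lower. Leaving out 1 array in turn gave 1774 to 2324 probe sets with MDA (852 to 1017 higher, 894 to 1343 lower), 1164 to 1787 with ANIT (559 to 1015 higher, 582 to 917 lower) and 150 to 381 for the difference (64 to 219 higher, 86 to 181 lower). The difference fell to 150 without corn oil array 1, 203 and 214 without corn oil arrays 2 and 3, and 217 and 206 without ethanol arrays 2 and 3.

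Signs turned only for named genes that were not called with MDA. Under quantile normalization these were Abcb11 (0.0343), Abcc2 (0.041), Alb (0.0) and Isg15 (0.0038), and under median centring Idi1 (-0.0036). Against 11 vehicle arrays they were Abcg8 (-0.3716), Alb (0.1098), Cxcr2 (0.0279), Isg15 (0.4242), Pdgfrb (-0.0674) and Ugt2b (0.1329). With the mean of all probe sets they were Idi1 (-0.0883) and Pdgfrb (-0.0438). With 1 array left out in turn, values spanned 0 for Abcb11 (-0.3101 to 0.1347), Abcc2 (-0.1202 to 0.031), Cyp7a1 (-0.0212 to 1.3466), Idi1 (-0.212 to 0.3031), Isg15 (-0.3562 to 0.1385), Mx1 (-0.1074 to 0.5925), Pdgfrb (-0.0672 to 0.1572) and Tubb2a (-0.1891 to 0.2212).

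Of 38 named and called genes with more than 1 probe set, 20 had another probe set that was not called (Aif1, Akr1c14, Anxa2, Cdh1, Cebpa, Cebpd, Fas, Fasn, Gzmb, Hnf4a, Hsd17b7, Msn, RT1-Bb, Rdh10, Rora, Sox4, Tap1, Thrb, Tubb6 and Vipr1), and 0 had probe sets called in opposite directions. The number of animals, 3 a group, limits the precision of each value.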
